A study of Mus musculus with 4 samples.

Results

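Keratins are the intermediate filament proteins of epithelia, hair and nails, and keratin-associated proteins are the small proteins that cross-link keratin filaments in the hair shaft. The genes described here are the RefSeq protein-coding genes of the mouse whose symbol is Krt or Krtap followed by a digit, 109 of 21887 protein-coding genes, 53 of them keratins and 56 associated proteins. A keratin filament is built from pairs of an acidic type I and a basic type II chain, and each type sits in its own gene cluster, with Krt18, a type I gene, at the edge of the type II cluster. B cells are not among the cells known for making these proteins. H3K27me3, the trimethylated form of lysine 27 on histone H3, is laid down by Polycomb repressive complex 2 at genes that are kept silent, and Kdm6b is an enzyme that removes it.

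Germinal center B cells, named pre-plasma in the series title, were sorted from the spleens of C57BL/6 mice, and the mark was mapped in them by CUT&Tag, a method that uses an antibody to bring a DNA-cutting and DNA-tagging transposase to the chromatin. Each of the 4 libraries was made from its own mouse: 2 were wild type (WT) and 2 lacked Kdm6b in B cells (KO). All mice received sheep red blood cells, a second dose on day 5, and were killed on day 12. Which Cre driver was used and which exons of Kdm6b were removed were not given in the sources used here, and peaks of a histone mark do not check the deletion. Each library had its own list of peaks (stretches called as carrying the mark), and the value used was the covered share, the percentage of a gene body, gene end or cluster that lay under peaks. A gene whose body was covered by 25% or more is called marked in that library. Library values are given in the order KO replicate 1, KO replicate 2, WT replicate 1, WT replicate 2.

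The lists differed in how much of the genome they covered, and every covered share below moves with this. Peaks covered 144, 236, 213 and 101 Mb, or 5.28%, 8.66%, 7.81% and 3.72% of the chromosomes, so 1 library of each genotype was broad and the other narrow. Read depth was unknown, and the labels gave an input of 1000 to 5000 cells. Of 10 B-cell and germinal center marker genes, 0, 1, 0 and 0 were marked, the exception being Cd79b with 58.9% of its body covered in KO replicate 2. Of 4 T-cell genes 3, 4, 4 and 3 were marked, of 4 myeloid genes 4, 4, 4 and 2, of 3 erythroid genes 0, 1, 1 and 0, and of 4 epithelial genes 4, 4, 4 and 2. Marker genes of T cells, myeloid cells and epithelia were thus marked in every library, while Cd79b was the single B-cell gene marked in any.

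Taken over all 109 genes, keratins and their associated proteins were marked about as often as other genes, and this hid large differences between clusters. The bodies of 16, 29, 27 and 13 of the 109 were marked (14.7%, 26.6%, 24.8% and 11.9%), beside 17.7%, 25.8%, 23.2% and 13.3% of all protein-coding genes. The type II keratin cluster was widely covered, the type I cluster was covered near its edges with a long stretch between that held no peak, and the Krtap cluster of chromosome 16 held no peak in any library. No peak touched the body of 70 of the 109 genes (64.2%, beside 36.9% of all genes), 39 had some coverage in at least 1 library, 21 had some in all 4, and 9 were marked in all 4. Those 9 were Krt8, Krt18, Krt1, Krt77 and Krt79 of the type II cluster, Krt24 and Krt19 of the type I cluster, and Krtap5-1 and Krtap5-4. Counting the 4000 bp windows centred on each gene end as well, 42 of the 109 had some coverage. With each list trimmed to the covered length of the shortest, KO replicate 2 had 0 of 5 Krtap5 cluster genes and 1 of 50 type I cluster genes marked. Krtap5-1, Krtap5-4 and at least 1 of Krt24 and Krt19 were then not marked in that library.

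The genes fell into 5 clusters, taken as runs of at least 3 genes with at most 1 Mb between neighbours (mm10). The type II cluster held 26 genes in 684 kb of chromosome 15 (chr15:101348315-102032026). The type I cluster held 50 genes, 27 keratins and 23 associated proteins, in 1037 kb of chromosome 11 (chr11:99232761-100269951). The Krtap cluster of chromosome 16 held 24 associated proteins in 960 kb (chr16:88610709-89571183). The Krtap5 cluster held 5 genes in 130 kb of chromosome 7 (chr7:142174532-142304503), and the Krtap10 cluster held 3, among them Krtap12-1, in 117 kb of chromosome 10 (chr10:77720586-77837251). Krtap28-13 on chromosome 1 stood alone and had no coverage.

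Peaks covered 20.9%, 42.1%, 38.5% and 14.2% of the type II cluster, which was 3.96, 4.86, 4.93 and 3.80 times the share of the genome covered in the same library. The broad libraries, 1 of each genotype, had the high values. The type I cluster was covered to 5.12%, 8.0%, 5.88% and 4.47%, or 0.968, 0.923, 0.753 and 1.2 times the genome. Chromosome 11 itself was widely covered, and the type I cluster reached 0.480, 0.470, 0.391 and 0.608 times its chromosome. The type II cluster exceeded the type I cluster in 4 of 4 libraries, by a mean of 23.1 points ± 12.2 (SD, n = 4 libraries of both genotypes). An exact two-sided sign-flip test gave p = 0.125 (0.125 after Benjamini-Hochberg adjustment over 4 such comparisons), the smallest p that 4 libraries allow, so this difference cannot pass a threshold of 0.05 in this design. With each list trimmed to the covered length of the shortest, the shares were 12.9%, 16.7%, 18.6% and 14.2% for type II and 3.92%, 3.03%, 3.53% and 4.47% for type I, the same direction in all 4.

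**Figure D1:**
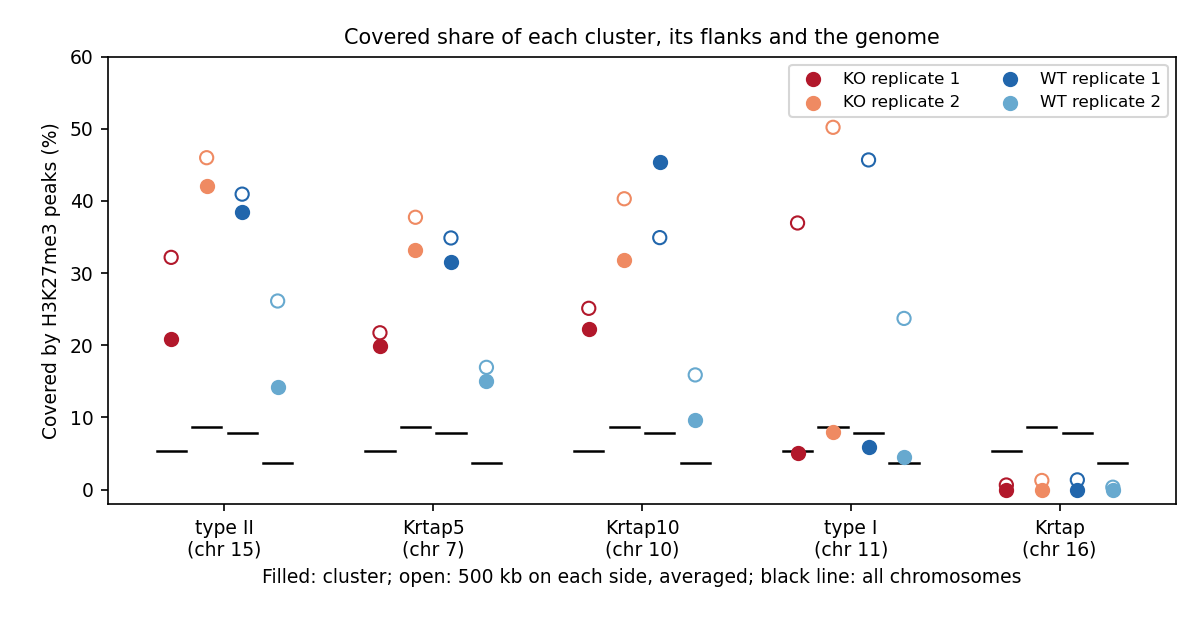
Share of each cluster (vertical axis, percent) covered by peaks in each of the 4 libraries (filled points), beside the mean share of the 500 kb on each side (open points) and of all chromosomes (black lines). In every library the type II cluster lies above the genome's share, the type I cluster lies far below its own flanks, and the chromosome 16 cluster lies at 0.

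The type I cluster stood in contrast to its own surroundings. The 500 kb on each side of it were covered to a mean of 37.0%, 50.2%, 45.7% and 23.7%, and the cluster lay below them in 4 of 4 libraries by a mean of 33.3 points (cluster minus flanks -33.3 ± 10.3, SD; exact two-sided sign-flip p = 0.125, adjusted 0.125). The type II cluster differed much less from its flanks, which were covered to 32.2%, 46.0%, 41.0% and 26.1% (cluster minus flanks -7.40 ± 4.92, SD, lower in 4 of 4; exact sign-flip p = 0.125, adjusted 0.125). The small Krtap5 cluster was covered to 19.8%, 33.2%, 31.6% and 15.1%, and the Krtap10 cluster to 22.2%, 31.8%, 45.3% and 9.61%. The flanks of Krtap5 were covered to 21.7%, 37.7%, 34.9% and 16.9%, and those of Krtap10 to 25.1%, 40.3%, 34.9% and 15.9%. The Krtap5 cluster lay below its flanks in every library, and the Krtap10 cluster in all but WT replicate 1. Both clusters lay above the genome's share in every library. At equal covered length the Krtap5 cluster was covered to 15.9%, 10.2%, 11.8% and 15.1% and the Krtap10 cluster to 10.5%, 0.951%, 11.9% and 9.61%, so the Krtap10 value of KO replicate 2 did not hold.

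**Figure D2:**
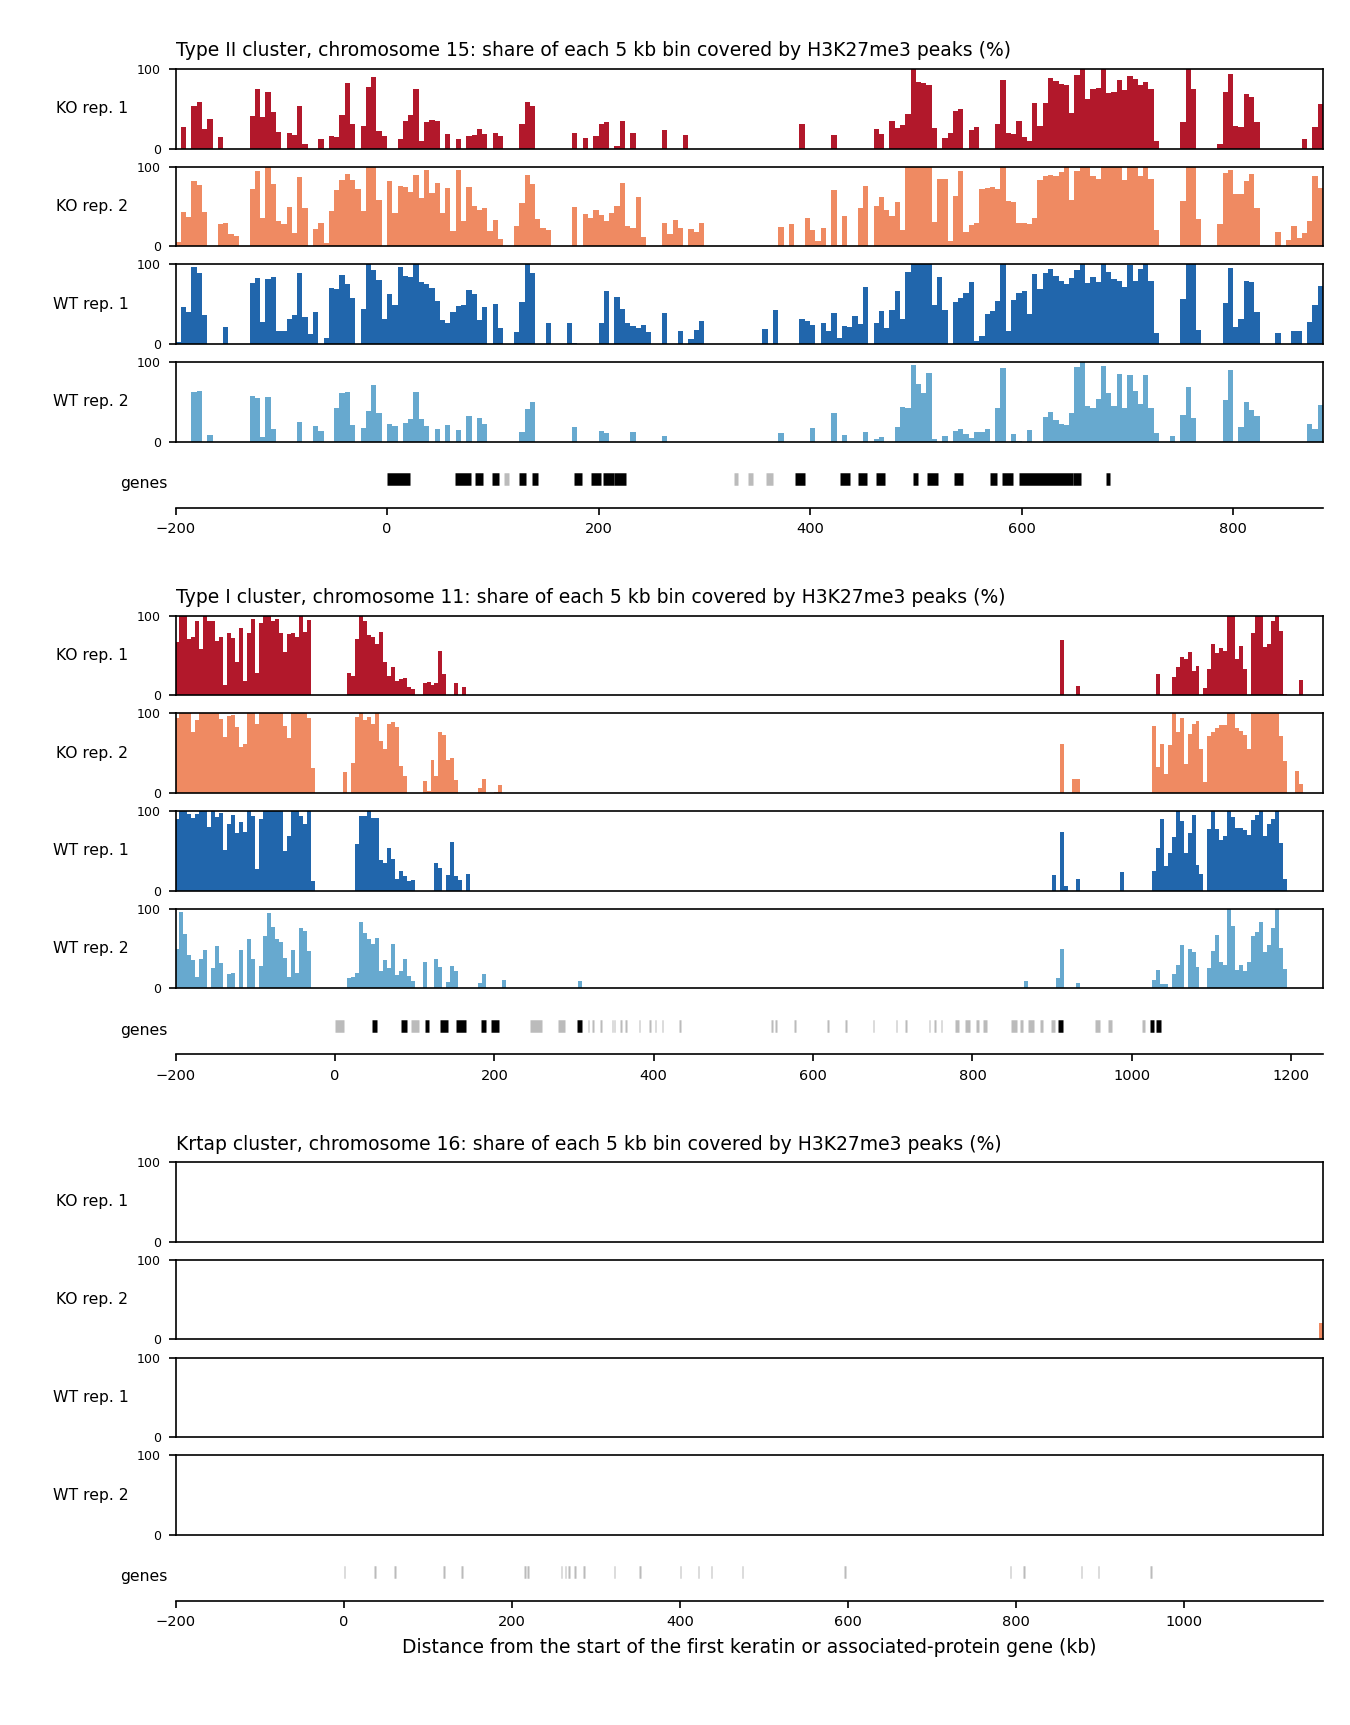
Peaks along the 3 large clusters with 200 kb on each side: bars give the share of each 5 kb bin covered in 1 library (0 to 100%), and the horizontal axis is the distance from the start of the first gene in kb. Boxes mark the genes, black where a peak touched the body in any library and grey otherwise, and the long empty stretch in the middle of the type I cluster lies between its covered edges.

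Simple epithelial keratins, made in single-layered linings such as gut and gland ducts, included the gene pair with the densest coverage of the type II cluster, Krt8 and Krt18, and also uncovered genes. Of 6 such genes 3, 4, 4 and 3 were marked. Krt8, the type II partner of Krt18, had 95.3%, 96.4%, 95.7% and 95.9% of its body covered (chr15:101996711-102004342). Its values differed little between libraries that differed more than 2-fold in covered length, and the genotypes overlapped. Krt18 had 94.5%, 100%, 100% and 83.2% (chr15:102028216-102032026). The highest-signal peak over Krt8 ranked at the 98.0, 98.8, 97.2 and 97.6 percentile of its library's list by maximum signal, the authors' own value, and that over Krt18 at 94.0, 98.4, 98.8 and 97.4.

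Krt7, the other type II gene of simple epithelia, had 5.58%, 66.2%, 55.5% and 15.2% of its body covered. Both broad libraries were high and both narrow ones low, across genotypes. Krt19, a type I keratin that lacks most of the usual tail, had 41.6%, 33.5%, 36.5% and 25.9%, and the window at its higher-coordinate end had 83.4%, 76.9%, 96.6% and 61.9%. That end was covered well beyond the body in every library, while the window at its lower-coordinate end had 0%, 0%, 0% and 15.6%. Krt20, the intestinal type I keratin, had 4.33% in KO replicate 2 and 0% elsewhere, and Krt23 had no coverage, so the group was split between genes under dense peaks and genes without them.

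Upstream sequences of 4 genes of the type II cluster are shown because they set dense coverage beside its absence within a single cluster. Each is the 250 bases before the annotated start on the gene's own strand, taken from RefSeq (build GRCm38.p6, the same assembly as mm10), and every CG pair is in capitals. Stretches rich in CG pairs are where Polycomb is known to gather in mammals. They lie at chr15:102004343-102004592 (minus strand), chr15:102027966-102028215 (plus), chr15:101412153-101412402 (plus) and chr15:101712906-101713155 (minus).
Krt8: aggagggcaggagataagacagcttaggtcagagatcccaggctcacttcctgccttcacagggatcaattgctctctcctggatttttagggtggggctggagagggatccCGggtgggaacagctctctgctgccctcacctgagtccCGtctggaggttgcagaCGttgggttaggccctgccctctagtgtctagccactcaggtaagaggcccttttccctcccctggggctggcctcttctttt
Krt18: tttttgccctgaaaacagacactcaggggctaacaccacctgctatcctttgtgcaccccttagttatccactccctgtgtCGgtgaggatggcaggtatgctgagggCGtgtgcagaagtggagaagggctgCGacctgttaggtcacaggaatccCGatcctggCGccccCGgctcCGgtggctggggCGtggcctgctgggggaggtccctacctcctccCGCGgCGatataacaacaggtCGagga
Krt7: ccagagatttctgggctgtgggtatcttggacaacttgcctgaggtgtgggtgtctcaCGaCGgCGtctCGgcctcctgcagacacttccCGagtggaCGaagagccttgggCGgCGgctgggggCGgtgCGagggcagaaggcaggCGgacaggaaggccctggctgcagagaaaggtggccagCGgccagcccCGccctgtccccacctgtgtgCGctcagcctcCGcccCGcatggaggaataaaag
Krt5: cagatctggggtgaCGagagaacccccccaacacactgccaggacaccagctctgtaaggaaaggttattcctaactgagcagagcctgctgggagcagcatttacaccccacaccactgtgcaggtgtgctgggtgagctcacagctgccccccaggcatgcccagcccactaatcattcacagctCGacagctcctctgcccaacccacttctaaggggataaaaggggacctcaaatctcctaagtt
Krt18 held 12 CG pairs and Krt7 held 16 in these bases, Krt8 held 3 and Krt5 held 2. The 4000 bp window centred on the start was covered to 100%, 100%, 100% and 96.5% in Krt8, to 100%, 100%, 100% and 93.9% in Krt18, to 14.2%, 44.6%, 76.9% and 0% in Krt7, and to 0%, 0%, 18.8% and 0% in Krt5. In these 4 genes, chosen for their coverage, Krt8 was near full coverage with few pairs and Krt7 had the most pairs with variable coverage. Over all 87 members with a matched start, the number of CG pairs and the mean covered share of the start window were weakly related across genes (Pearson r = 0.315, Spearman rho = 0.338, a description over genes that share the same 4 libraries), and over the 15 matched type II keratins r was 0.0446 and rho -0.0382. The CG count came from each gene's promoter entry with the most pairs, and the start window was centred on the outer gene edge. In some genes, such as Krt10 and Krt36, these places lay apart.

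Over the 87 members whose start was matched to a RefSeq promoter (300 bases, 250 before to 50 after the start; 17492 of all genes matched), the median was 3 CG pairs, beside 15 over all matched genes. The entry with the most CG pairs stood for each gene, members and others alike. At least 10 pairs were found in 4 of the 87 (4.60%, beside 59.5% of all). The letters TATAAA, searched on both strands in the same 300 bases, were found in 61 of the 87 (70.1%, beside 12.9% of all). Among genes with fewer than 10 pairs, the start window was marked (at least 25% covered) in 3, 9, 8 and 3 of 13 in the type II cluster (23.1%, 69.2%, 61.5% and 23.1%) and in 2, 2, 2 and 1 of 40 in the type I cluster (5%, 5%, 5% and 2.5%). The same share over all such genes was 20.5%, 29.2%, 27.7% and 15.6%. With 10 or more pairs the share was higher, 35.7%, 50.5%, 43.1% and 27.8% over all genes and 1, 3, 2 and 1 of 4 members. Most promoters of both clusters were low in CG pairs, and the part of CG content in the difference between the clusters was not tested.

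Partner keratins of the epidermis could differ widely. Krt1 and Krt10 form the filament pair of the differentiating layers and Krt5 and Krt14 that of the basal layer. Krt1, in the type II cluster, had 84.5%, 100%, 100% and 80.7% of its body covered, with peaks at the 91.3, 94.5, 97.0 and 89.8 percentile of maximum signal. Krt10, in the type I cluster, had 3.91%, 0%, 5.61% and 0%. Krt5 and Krt14 had no body coverage in any library. The partners thus stood far apart for Krt1 and Krt10 and were alike for Krt5 and Krt14.

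Among keratins of other stratified epithelia, Krt76 of the palate had 42.3%, 76.8%, 65.0% and 9.26%, and Krt4 of the mucosa of mouth and oesophagus had 0%, 68.2%, 30.2% and 0%. For Krt4 only the broad libraries had body coverage. Its partner Krt13 had none, and neither did Krt15 or Krt16, both of basal or activated keratinocytes. Krt17, an appendage keratin also induced in wounded skin, had 0%, 51.3%, 0% and 11.4%, and the corneal Krt12 had 0%, 16.2%, 0% and 17.6%. The covered libraries of Krt17 and Krt12 were 1 KO and 1 WT each, so the genotypes overlapped.

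Toward the end of the type II cluster that holds Krt8 and Krt18, Krt77, Krt78 and Krt79 had body coverage in every library. Coverage was not compared between parts of the cluster. Krt77 had 48.6%, 66.0%, 72.2% and 41.0%, Krt78 had 52.5%, 65.6%, 73.6% and 15.3%, and Krt79 had 45.1%, 62.7%, 43.5% and 32.8%. In Krt79, which is expressed in the hair follicle canal, the window at the lower-coordinate end, its 3′ end, was covered to 73.8%, 100%, 100% and 100%, beside 0%, 45.5%, 44.8% and 0% at the start. Krt80, at the other edge of the cluster, had 16.3%, 67.3%, 75.8% and 20.3%. The uncovered members of the cluster were Krt5, Krt6a, Krt6b and Krt81, and a stretch of 58.6 kb with no peak in any library (chr15:101647392-101705967) held Krt6a and Krt6b, keratins of wounded and hair-follicle epithelium.

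**Figure D3:**
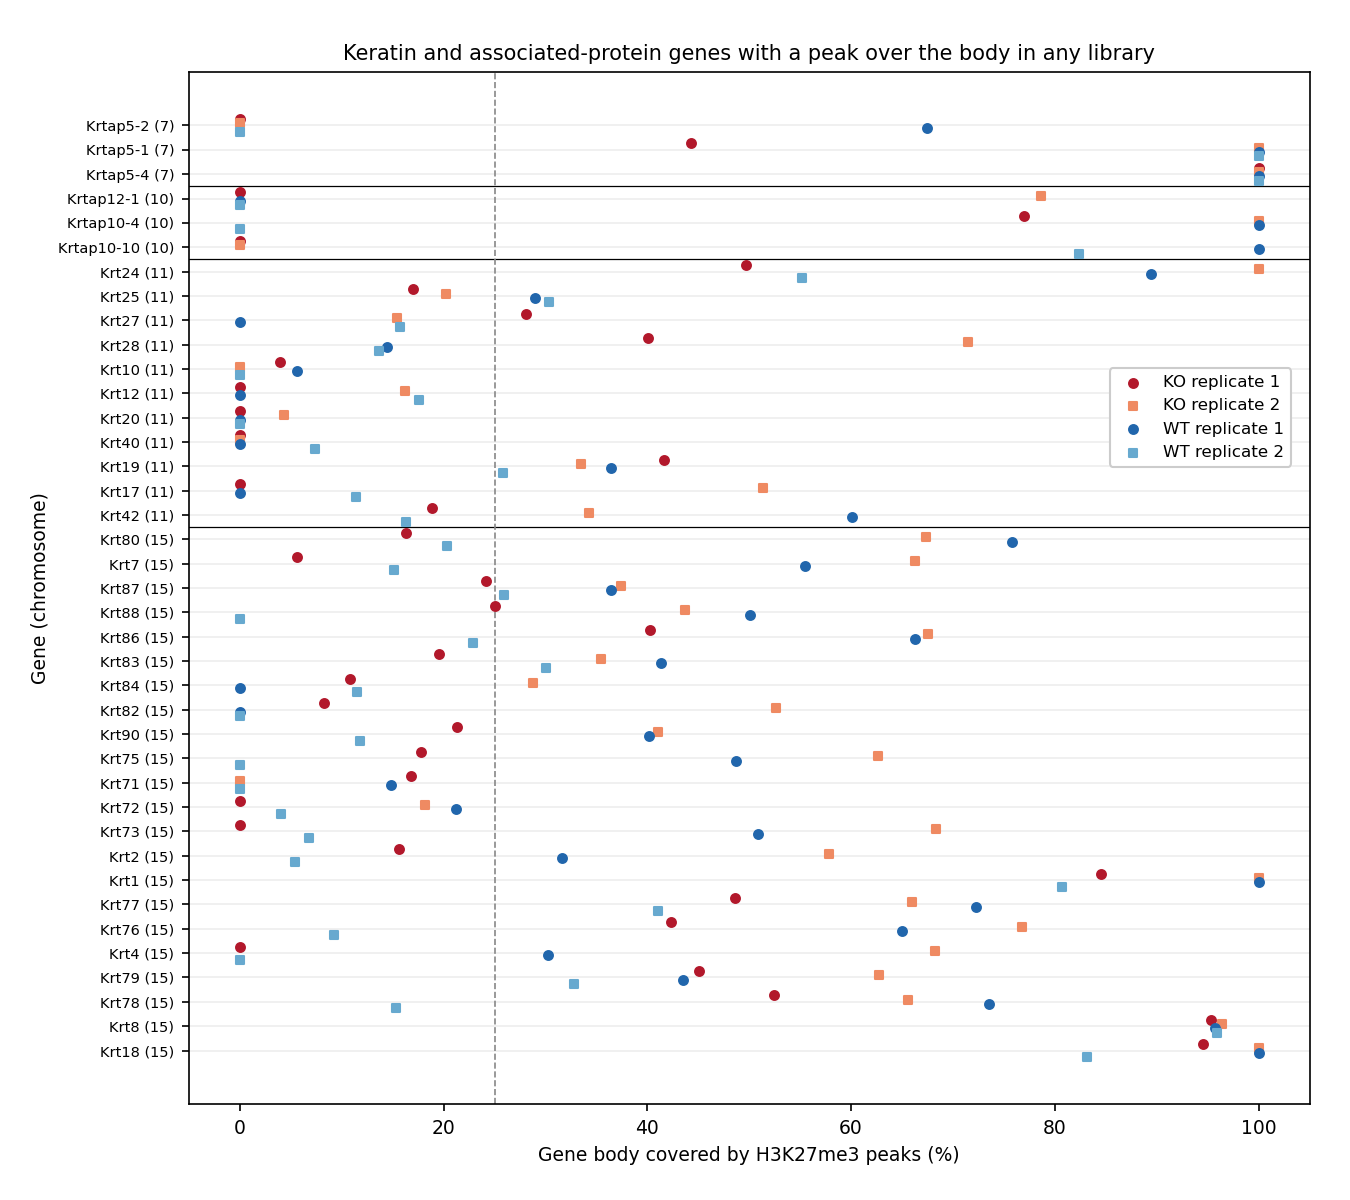
Share of the gene body covered by peaks (horizontal axis, percent) in each library for the 39 genes with coverage in at least 1 library, grouped by chromosome; the dashed line marks 25%. Krt8, Krt18 and Krt1 lie above 80% in all 4 libraries, and for most other genes of chromosome 15 the broad libraries of both genotypes (KO replicate 2 and WT replicate 1) lie to the right of the narrow ones.

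Hair keratins showed the contrast between clusters within a single structure. Of 15 hair shaft keratins found, 1, 5, 3 and 2 were marked. Krt86, a type II hair keratin, had 40.3%, 67.6%, 66.3% and 22.9%, and Krt83, Krt84 and Krt87 had some coverage as well. Krt82 had 8.23%, 52.7%, 0% and 0%, so peaks touched it in the KO libraries alone. Krt31, Krt32, Krt33a, Krt33b, Krt34, Krt35, Krt36 and Krt39, the type I hair keratins of chromosome 11, had none in any library, and Krt40 had 7.4% in WT replicate 2 alone. Krt81, the type II hair keratin next to Krt86, also had none.

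Of 7 inner root sheath keratins, which line the hair canal, 2, 2, 2 and 1 were marked. Krt25 had 17%, 20.2%, 28.9% and 30.3%, Krt28 had 40%, 71.5%, 14.4% and 13.7%, and Krt71 had 16.8%, 0%, 14.8% and 0%. For Krt25 and Krt28 the genotypes did not overlap, in opposite directions. Krt24, at the covered edge of the type I cluster, had 49.7%, 100%, 89.4% and 55.2%, and Krt42 at the other edge had 18.9%, 34.3%, 60.1% and 16.3%.

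**Figure D4:**
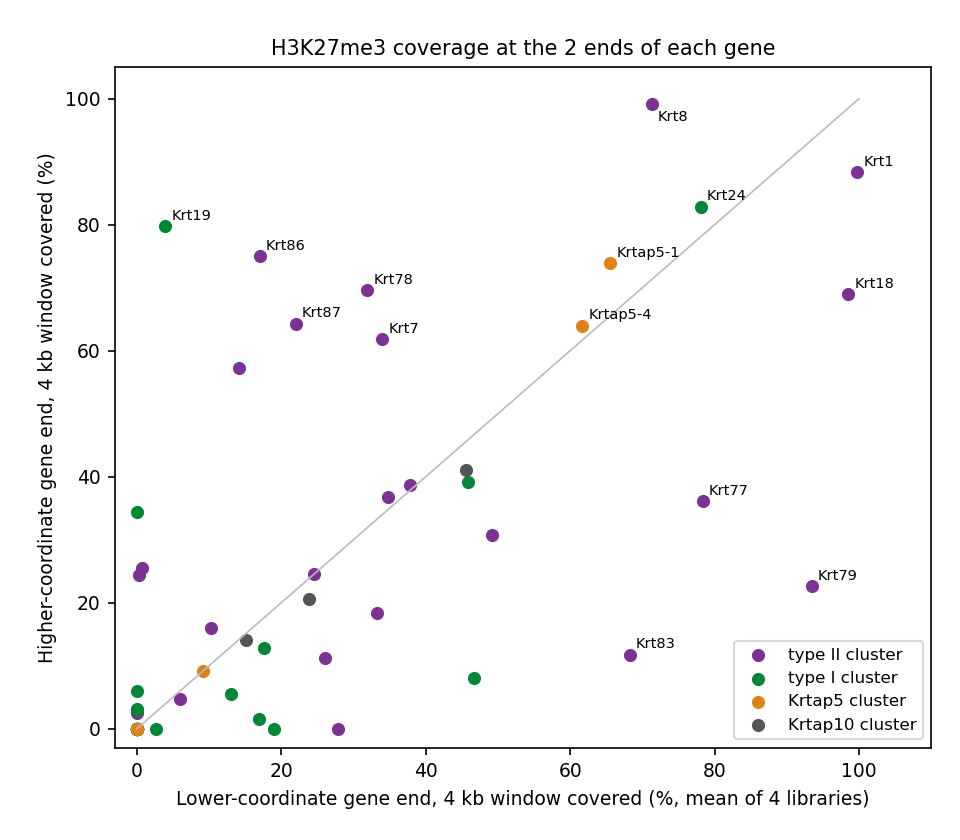
Covered share of the 4000 bp window at the lower-coordinate end (horizontal axis) and the higher-coordinate end (vertical axis) of each gene of 4 clusters, in percent as the mean of 4 libraries, with genes of at least 60% at either end named. Krt19 and Krt79 lie far from the diagonal, with 1 end covered much more than the other, while Krt1, Krt18, Krt24 and Krt8 lie high at both.

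Inside the type I cluster, 557 kb held no peak in any of the 4 libraries (chr11:99542294-100098866). The stretch ranked at place 734 by length among the 117962 stretches between peaks of the genome and held 44 protein-coding genes, 29 of them members, from Krtap3-3 to Krt35. A stretch of 98.2 kb beside it held Krt23 and Krt39, and a stretch of 55.1 kb held Krt9 and Krt14. All 23 associated-protein genes of the cluster were uncovered. The marked genes of the cluster, 4, 5, 4 and 3 per library, were all among its 27 keratins. Of its 50 genes, 39 had no body coverage, and these lay 0.081 to 267 kb from the nearest peak of any library (median 55.1 kb).

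The chromosome 16 cluster lay inside a longer peak-free stretch of 2020 kb (chr16:87754118-89773929), which ranked at place 148 and held 61 protein-coding genes, all 24 members of the cluster among them. These genes, Krtap11-1, Krtap13 and Krtap13-1 among them, were uncovered over the body and both ends in all 4 libraries and lay 203 to 997 kb from the nearest peak (median 849 kb). Shorter empty windows were not rare: 398 of 2462 windows of 1 Mb with a gene (16.2%) held no peak in any library. A single long stretch can supply several such windows, so this is not the share of stretches as long as 2020 kb. The chromosome 16 cluster was at 0% in every library, so the type I cluster exceeded it by its own share, a mean of 5.87 points ± 1.53 (SD). No difference could be negative here. The exact two-sided sign-flip result (p = 0.125, adjusted 0.125) was therefore fixed in advance and decides nothing.

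Near-identical copies lie in these Krtap families, and how reads shared by copies were assigned was not given in the sources used here. Among the 3741 pairs of the 87 matched promoters, the median identity was 47%, and 1 pair reached 90%: Krtap19-1 and Krtap19-2, at 91% with 27 single-base edits (substitutions, insertions or deletions) between their 300 bases. Krtap31-1 and Krtap31-2 were next at 87%. The values of both pairs are uncertain for this reason, and all 4 genes had no coverage in any library. The upstream 250 bases of the closest pair (chr16:88869411-88869660 and chr16:88874270-88874519, both minus strand) show how alike such copies are, with CG pairs in capitals.
Krtap19-1: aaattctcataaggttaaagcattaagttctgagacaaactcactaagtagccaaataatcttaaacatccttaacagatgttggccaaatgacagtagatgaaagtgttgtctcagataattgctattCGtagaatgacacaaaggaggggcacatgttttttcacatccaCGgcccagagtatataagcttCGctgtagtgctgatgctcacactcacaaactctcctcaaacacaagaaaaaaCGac
Krtap19-2: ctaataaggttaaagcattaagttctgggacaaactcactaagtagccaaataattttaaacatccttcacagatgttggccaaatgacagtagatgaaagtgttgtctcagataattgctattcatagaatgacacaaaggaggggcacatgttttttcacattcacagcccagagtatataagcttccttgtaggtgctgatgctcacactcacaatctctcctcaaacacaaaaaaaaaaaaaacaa
The likeness of the 22 members without a matched promoter, Krt6a and Krt6b among them, was not measured. Likeness over gene bodies was not measured for any member. Body values of other Krtap genes, those in peak-free stretches included, may therefore be uncertain for the same reason.

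In the Krtap5 cluster, Krtap5-4 was covered to 100% in all 4 libraries and Krtap5-1 to 44.3%, 100%, 100% and 100%, while Krtap5-2 had 0%, 0%, 67.4% and 0% and Krtap5-3 and Krtap5-5 had none. At equal covered length no gene of this cluster was marked in KO replicate 2. Krtap5 proteins are rich in cysteine and glycine. These genes are short (Krtap5-4 spans chr7:142303502-142304503), so a single peak can cover all of one. In the Krtap10 cluster all 3 genes lie within the longer gene Tspear, and coverage cannot be assigned to the small genes rather than to Tspear. The span held 13 other protein-coding genes, Tspear among them. Gm3238, for example, was covered to 100% in all 4 libraries, and Gm29802 to 0%. Of the covered bases of the cluster, 2.67%, 3.85%, 4.17% and 9.59% lay in the bodies of the 3 members. Krtap10-4 had 76.9%, 100%, 100% and 0%, Krtap10-10 had 0%, 0%, 100% and 82.4%, and Krtap12-1 had 0%, 78.7%, 0% and 0%. Each of these 3 genes was thus uncovered in at least 1 library and covered to over 75% in another.

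No keratin or associated-protein gene was called different between KO and WT in the covered share of its body. In limma fitted over 13805 genes with coverage, 0 of 39 members tested were called at an adjusted p of 0.05 in either direction (smallest adjusted p among members 1), beside 0.0145% of all genes called higher in KO and 0% lower. At an unadjusted limma p under 0.05, 0 of the 39 members were higher and 2 lower (Krtap10-10 and Krt25), beside 216 and 47 of the 13805 genes. Of the genes marked in both libraries of a genotype and in neither of the other, 1 member was marked in KO alone (Krt28, beside 0.397% of all genes) and 2 in WT alone (Krtap10-10 and Krt25, beside 0.0594%). The KO libraries were both above the WT libraries for 3 members (Krt28, Krt82 and Krt79, 2.75% of 109, beside 7.75% of all genes) and below them for 2 (Krtap10-10 and Krt25, 1.83%, beside 1.73%).

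Krt28 had the largest difference upward, 55.7% ± 22.3 in KO and 14% ± 0.514 in WT (SD, n = 2 each), a KO minus WT difference of 41.7 points (SE 13.7; limma adjusted p = 1). With each list trimmed to equal covered length the difference was 1.35 points. Krtap10-10 had the largest difference downward, -91.2 points (SE 7.71; limma adjusted p = 1), and -41.2 points at equal covered length. Krt25 differed by -11 points (SE 1.76; limma adjusted p = 1), and by -29.6 points at equal covered length. The other large differences were those of Krtap12-1 (39.3 points), Krtap10-4 (38.5), Krt82 (30.4) and Krt76 (22.5) upward and of Krtap5-2 (-33.7), Krtap5-1 (-27.8) and Krt42 (-11.6) downward. In Krtap12-1, Krtap5-2 and Krtap5-1 a single library stood apart from the other 3.

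At the gene ends no member was called either. This held in limma at the lower-coordinate end (37 tested), the higher-coordinate end (39), the start (27) or the opposite end (27), where 0% of all 10438, 10353, 10279 and 6222 genes tested were called. The smallest adjusted p among members was 0.905, 0.905, 0.884 and 0.94. At an unadjusted p under 0.05, Krt28 and Krt76 were higher in KO at the lower-coordinate end (36.2 points, SE 11, and 40.9 points, SE 3.93; limma adjusted p = 0.905 for both), and Krtap10-10 was lower at the higher-coordinate end (-41.1 points, SE 11.6; limma adjusted p = 0.905). These were 2 of 37 members at the lower-coordinate end and 1 of 39 at the higher. Of all 10438 genes tested at the lower-coordinate end, 365 were higher and 57 lower at that threshold. Of the 10353 tested at the higher-coordinate end, 334 were higher and 52 lower.

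By cluster, KO minus WT was 5.14 points for type II (31.5% ± 15 in KO and 26.3% ± 17.2 in WT, SD, n = 2 each), 1.38 for type I (6.56% ± 2.04 and 5.18% ± 0.999), 3.16 for Krtap5 and -0.434 for Krtap10. Exact two-sided permutation of the 4 libraries gave p = 0.667, 0.667, 0.667 and 1 (adjusted 0.889, 0.889, 0.889 and 1), where 2 against 2 cannot go below 0.33. All 4 differences were within the spread between mice. At equal covered length the type II, type I and Krtap5 differences turned to -1.53, -0.523 and -0.429 points.

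Lists of other genes of epithelia and hair differed in how many of their genes were covered. Of 23 cornified envelope genes 4, 7, 7 and 4 were marked and 15 had no coverage in any library, among them filaggrin (Flg), involucrin (Ivl) and the Sprr and Lce genes listed. Lor, the main envelope protein, had 81.7%, 80.6%, 80.4% and 83.4% of its body covered, and Tgm1, the enzyme that cross-links the envelope, 64.5%, 88.4%, 89.8% and 54.1%. All 8 desmosome plaque genes, whose proteins anchor keratin to cell junctions, had coverage, and 5, 8, 7 and 4 were marked, Jup to 63.7%, 83.6%, 86.4% and 52.6%.

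Of 16 transcriptional regulators of hair and epidermis, 13, 13, 13 and 12 were marked. Hoxc13, a regulator of hair keratin genes, had 96.7%, 100%, 100% and 91.8%, and Dlx3 had 93.1%, 92.9%, 94.7% and 97.5%. Trp63, the master regulator of stratified epithelia, and Grhl1 had none. Of 16 other intermediate filament genes 10, 11, 10 and 9 were marked, Prph of peripheral neurons to 100%, 100%, 100% and 97.5%. Vimentin (Vim), which B cells express, had 19.8%, 22.4%, 16.3% and 15% of its body covered. The window at its lower-coordinate end was covered to 92.05%, 97.75%, 84.8% and 82.0%, and that at its higher-coordinate end to 0% in every library. No gene of these lists passed limma between genotypes (adjusted p = 1 for each tested).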

How the data were processed

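The authors deposited 1 peak list per library, called per library, with each peak's position and its total and maximum signal (coverage) as values. Per the submitters' processing notes, SEACR, deepTools, Bowtie2 2.4.2, Trim Galore 0.6.6 and SAMtools 1.11 were used on mm10; settings, any control and the signal's scale were not given in the sources used here, so signal was used only to rank peaks within a list. Peaks on chromosomes 1 to 19, X and Y did not overlap within a library and were used as listed. Covered shares were computed for the bodies and ends of 21887 RefSeq protein-coding genes (GRCm38.p6). Strand came from the RefSeq promoter table, and the gene start was taken as the outer edge of the gene on that strand. Shares were compared with limma 3.58.1 (R 4.3.3, lmFit and eBayes without trend, Benjamini-Hochberg, threshold 0.05) over all genes with coverage in any library, and clusters by exact permutation with scipy 1.17.1. The limma step was run on simulated data with independent noise. That setting lacks the differences in breadth between the real lists, so it does not show the power of limma here. Sign-flip comparisons between clusters were added after the data were seen. The members, gene lists, named genes (20 keratins by tissue, the 3 highest and lowest per cluster, the 5 largest differences each way, genes marked in a single genotype, and genes covered mainly at an end) and tests were chosen with earlier results of these data known. Peak lists hold positions above a threshold, so an uncovered gene may carry mark below it. Precision rests on 2 mice per genotype, and no counting interval was computed. Alternatives left out each library, trimmed lists to equal length or by signal, and varied windows, thresholds and scaling.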

Additional observations from a re-analysis of the deposited data

How the results depend on the processing

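All limma counts of members stayed at 0 under all 82 alternatives computed for them. The difference of the cluster shares (KO minus WT) kept no stable direction. Leaving out each library in turn, it ranged from -5.10 to 11.4 points for Krtap5, -18.3 to 17.4 for Krtap10, -0.0621 to 2.82 for type I and -7.03 to 17.3 for type II. At equal covered length it was -0.429, -5.04, -0.523 and -1.53. As a ratio to the chromosome it was -0.0891 for Krtap5 and -0.0240 for type I, and as a ratio to all chromosomes -0.258 and -0.0314. Over member bodies alone Krtap5 gave -11.7, and with the stricter peak list Krtap10 gave 0.335. Members marked in KO alone numbered 1 to 6 when a library was left out, and 0 at equal covered length and with marked set from 10% or from 50%. Those marked in WT alone numbered 2 to 4 when a library was left out, 1 at equal covered length, with the stricter list, from 10% and from 50%, and 0 with 2 kb added on each side. Marked members per library were 26 (KO replicate 1) and 24 (WT replicate 2) from 10%, 6 and 7 from 50%, and 10 (KO replicate 2) and 14 (WT replicate 1) at equal covered length. Krt42 turned to 1.35 points with the stricter list. Leaving out a library it ranged from -33.5 to 10.3 points (positive without WT replicate 1), Krtap10-4 from -11.5 to 88.5 and Krt76 from -5.39 to 50.3 (both negative without WT replicate 2). The cause was not tested. Krtap5-1 ranged from -55.7 to 0 points when a library was left out (0 without KO replicate 1). At equal covered length no value was fitted for Krtap5-2, Krtap12-1, Krtap10-4 and Krt82. Nor was any fitted for Krtap12-1 with the stricter list or without KO replicate 2, or for Krtap5-2 without WT replicate 1. In these settings no library covered the gene body. The other fitted values kept their direction and their side of the threshold, or stayed within 1.5 times for counts. Leaving out members by protein identity was not run, since no protein sequences were used here; leaving out the pair at 90% promoter identity, chosen after seeing the data, took its place. No paired analysis was possible because the labels give no replicate numbers or other pairing of mice. Without a known read depth, an uncovered gene cannot be told from a gene whose mark lay below the peak threshold.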
